A study of Mus musculus with 91 samples.

Results

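Neuropeptide receptors are G-protein-coupled receptors that read slow peptide signals, and 34 of their genes, with *Qrfpr* among them, are described here in layer 5 (L5) pyramidal neurons (Pyrs) of mouse primary visual cortex (V1). The 34 are a list of receptor genes out of 34745 genes in the deposited table. *Qrfpr* is on the list because its counts are seen mostly in one of the neuron types, so its own difference between the types is a description and was not tested. All 34 have a row in the files.

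The samples are 91 single neurons of wild-type (WT) mice, adults of 8 to 12 weeks and of both sexes per the study's methods. Each neuron was recorded in an acute V1 slice, its soma was drawn into the recording pipette, and a full-length cDNA library was made from it (Patch-seq). The groups are 47 neurons labelled Pyr←LP and 44 labelled Pyr←ORBvl, named for the input each type receives, from the lateral posterior thalamic nucleus (LP) or the ventrolateral orbitofrontal cortex (ORBvl). In the recorded neurons the type was read from the slope of the hyperpolarization-activated current I_h by a trained classifier and not from the input itself. The labels name no mouse. Per the study's methods there were fewer mice than neurons, so neurons share mice, and whether prefixes do cannot be told from the sources used here. Each neuron name starts with a prefix whose meaning is not given in the sources used here, and 14 of the 17 prefixes hold both types. The counts of all neurons that share a prefix and a type were therefore summed and compared with the prefix as a block, and p-values measure the spread between prefixes only.

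Peptides are cut from larger precursors, stored in dense-core vesicles and act at a distance from the site of release. Receptors coupled to Gi/o lower cAMP and open inwardly rectifying potassium channels, those coupled to Gs raise cAMP, and those coupled to Gq activate phospholipase C and release calcium. In cortex most peptides come from GABAergic interneurons, while pyramidal neurons carry many of the receptors. *Qrfpr* encodes the receptor of the RFamide peptide QRFP (26RFa), known from hypothalamic feeding and arousal circuits.

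Total counts per neuron ranged from 2410 to 1948982, with medians of 411884 in Pyr←LP and 445008.5 in Pyr←ORBvl neurons, and the medians of detected genes were 3241 and 3980.5. *Snap25*, a synaptic protein of all neurons, had a count in every neuron, and the vesicular glutamate transporter *Slc17a7* in 35 Pyr←LP and 36 Pyr←ORBvl neurons. Of the layer 5 markers, *Fezf2* had a count in 20 and 32 neurons. Markers of other cells were also present: the microglial complement gene *C1qb* in 39 and 43 neurons, the myelin gene *Mbp* in 45 and 43, at least 1 of 9 GABAergic markers in 21 and 26, and at least 1 of 6 astrocyte markers in 23 and 24. *C1qb* and *Mbp* do not stand for their whole lists. The median neuron of either type had a count of 3 of 6 microglial and 2 of 6 oligodendrocyte markers. The myelin genes *Mog* and *Mag* were at 0 in all Pyr←LP neurons, and *Dlx6os1* of the GABAergic list was at 0 in all neurons. The part of these other cells in the receptor values was not tested. Pyr←ORBvl C5 and Pyr←ORBvl C11 stand apart: their log2(count + 1) values correlated at r = 0.993 across genes, against 0.711 for the next pair of neurons, and their raw counts at 0.996 against 0.973, although their prefixes differ and their counts differ by more than sampling noise. They are given as 2 neurons here, with the value for the pair taken as 1 neuron where it matters. The neuron Pyr←LP C34 has the most detected genes, 11013, and fails the study's exclusion rule on GABAergic counts.

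Of the 34 receptors, 8 had no count in any neuron, beside 46.3% of all genes, 17 had a count in 1 to 9 neurons and 9 in 10 or more, beside 27.6% of all genes. A detected receptor is a neuron with at least 1 count, and intervals are Wilson 95% intervals that cover counting error only. Where no neuron had a count, the limit given is the share that 3 neurons would make, which is lower than the Wilson bound drawn in the plot of shares. The 9 widely detected receptors were *Cckbr* in 31 neurons, *Npy1r* in 30, *Sstr2* in 28, *Qrfpr* in 25, *Oprl1* in 23, *Ntsr2* in 20, *Sstr4* in 14, and *Adcyap1r1* and *Mc4r* in 12 each. The plot of shares by type shows that for most receptors the intervals of the types overlap.

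**Figure D1:**
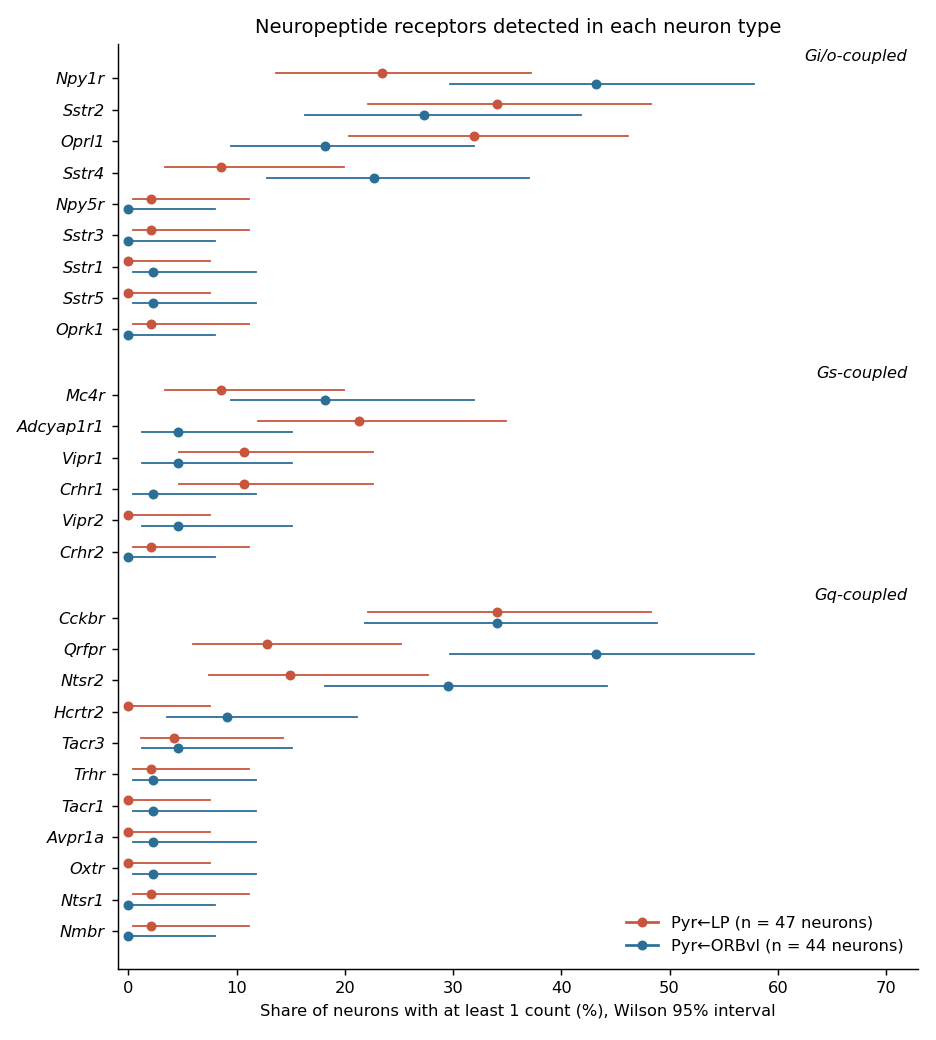
Share of neurons with at least 1 count of each of the 26 receptors that had one, on the x axis in percent, for 47 Pyr←LP (red) and 44 Pyr←ORBvl (blue) neurons. Receptors are grouped by G-protein coupling, and lines are Wilson 95% intervals; *Qrfpr* stands at 12.8% and 43.2%, *Cckbr* at 34.04% and 34.09%.

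*Qrfpr* lies on chromosome 3 of GRCm38, chr3:36179426-36222275, and its span holds the predicted gene *Gm18893*. It had a count in 19 of 44 Pyr←ORBvl neurons (43.2%, interval 29.7 to 57.8%) and in 6 of 47 Pyr←LP neurons (12.8%, interval 5.98 to 25.2%). The number of counts behind these detections differed. In Pyr←LP neurons no count was above 2, and 5 of the 6 neurons held a single count, 7 counts in all. In Pyr←ORBvl neurons the 19 positive neurons held 1 to 815 counts with a median of 112, 4453 counts in all. At least 5 counts were present in 17 of 44 Pyr←ORBvl and 0 of 47 Pyr←LP neurons, and 0 of 47 allows a share of up to 6.38%.

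In FPKM, a level scaled to gene length and total count, the lowest and the median Pyr←ORBvl neuron were at 0 and the highest, Pyr←ORBvl C7, at 222.6. The mean was 37.4 ± 59.6 (SD, n = 44). Pyr←LP neurons had a median of 0, a mean of 1.57 ± 8.92 (SD, n = 47) and a highest value of 60.8. That highest value was 1 count in Pyr←LP C16, a neuron with 4214 counts in total, and it made up 82.6% of the Pyr←LP sum. Among the 72 neurons with at least 100000 counts the means were 0.104 ± 0.337 (SD, n = 38) and 41.2 ± 64.0 (SD, n = 34). The groups overlapped: 25 Pyr←ORBvl neurons had no count, the single count of Pyr←LP C16 lay above positive Pyr←ORBvl neurons such as C25 at 54.3 FPKM, and Pyr←ORBvl C5, with 1 count at 0.258 FPKM, lay below all 6 positive Pyr←LP neurons.

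*Qrfpr* was spread over prefixes. Counts were found in Pyr←ORBvl neurons of 9 of the 15 prefixes that hold that type, and in Pyr←LP neurons of 5 of 16. Summed per prefix, *Qrfpr* CPM values (counts scaled to the total count) were compared in the 14 prefixes that hold both types: the Pyr←ORBvl sum was higher in 9 and the Pyr←LP sum in 1, and 4 had no counts. By share of neurons with a count, 7 prefixes were higher in Pyr←ORBvl and 3 in Pyr←LP. Among those 9 prefixes the Pyr←ORBvl sum ran from 57.4 CPM in prefix 914 to 454 CPM in prefix 822. In prefix 915, by contrast, none of 4 Pyr←ORBvl and 6 Pyr←LP neurons had a count. Over all sums the fitted log2 fold change was 7.10, given as a value only. Within the Pyr←ORBvl type, *Qrfpr* was thus absent from the counts of 25 neurons, whose median total was 355402 against 484560 in the 19 with a count. Thinned to 100000 counts, 15 of 34 Pyr←ORBvl and 2 of 38 Pyr←LP neurons kept a *Qrfpr* count.

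The layer 5 genes in *Qrfpr*-positive neurons are given as a description. *Fezf2*, which specifies subcerebral projection neurons, had a count in 20 of the 25 neurons with *Qrfpr* (80.0%) and in 32 of the 66 without it (48.5%). *Bcl11b* (Ctip2), of the same lineage, had a count in 13 (52.0%) and 13 (19.7%). *Etv1*, also of the layer 5 list, had one in 14 (56%) and 27 (40.9%). *Rorb*, a layer 4 and upper layer 5 gene, had one in 9 (36%) and 25 (37.9%). These shares mix the types, since 19 of the 25 positive neurons are Pyr←ORBvl. The positive neurons also had more detected genes, with a median of 4188 against 3310, and 17 of 25 (68%) against 30 of 66 (45.5%) had a count of a GABAergic marker; the part of these in the shares was not tested. The precursor of the ligand, *Qrfp*, had no count in any of the 91 neurons, which allows a share of up to 3.30%.

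**Figure D2:**
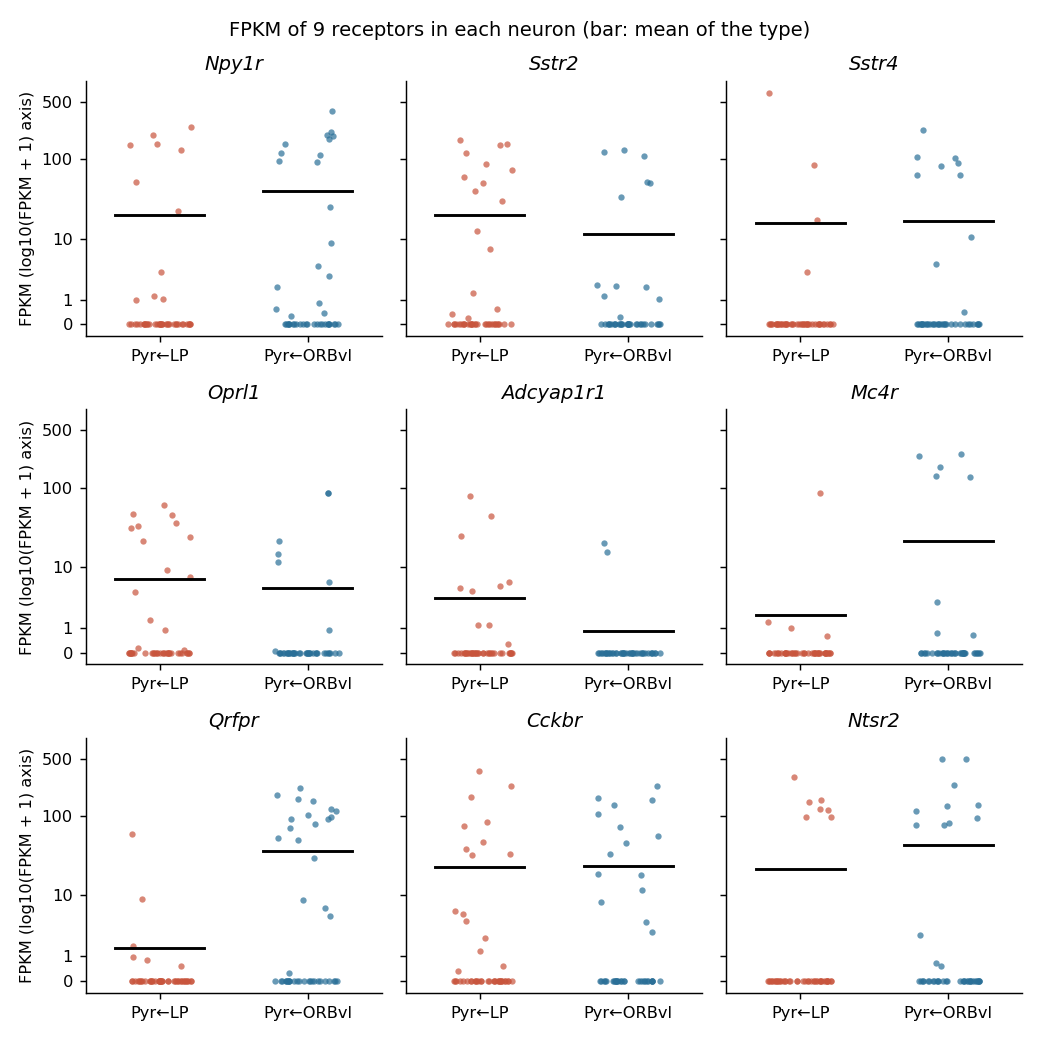
FPKM of 9 receptors in each neuron, on a log10(FPKM + 1) axis, for 47 Pyr←LP (red) and 44 Pyr←ORBvl (blue) neurons; each point is 1 neuron and the bar is the mean of the type. Most neurons lie at 0 in every panel, and *Qrfpr* reaches 222.6 in Pyr←ORBvl neurons and 60.8, from 1 count, in Pyr←LP neurons.

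Besides *Qrfpr*, 7 receptors had at least 5 counts in at least 10 neurons and entered the test across 8267 genes (edgeR quasi-likelihood test, with calls at adjusted p below 0.05 and more than a 2-fold change). None of the 7 was called, beside 0.0363% of all genes tested, and the smallest adjusted p was 0.981. At an unadjusted p under 0.05 stood 1 of the 7, *Adcyap1r1*, beside 4.62% of all genes. DESeq2 on the same sums called 1 of the 7, *Oprl1*, beside 6.56% of all genes. With single neurons in the place of replicates, edgeR and DESeq2 called none of the 7, beside 1.49% and 0.786% of all genes, although DESeq2 gave no adjusted p for *Adcyap1r1*. Higher in Pyr←ORBvl neurons in value were 4 and lower were 3, with a median log2 fold change of 0.11 beside 0.31 over all genes. Standard errors of 1.27 to 2.90 on the log2 scale leave wide room around each value. The size of these fold changes depends on the block: on the same sums without the prefix as a block, all but that of *Npy1r* (0.64) were nearer 0, at -1.89 for *Adcyap1r1*, -0.72 for *Oprl1*, -0.54 for *Sstr2*, 0.47 for *Sstr4*, 0.87 for *Ntsr2* and 0.24 for *Cckbr*. On single neurons with no prefix term, edgeR gave -1.05 for *Oprl1* and 0.091 for *Sstr4*. With standard errors this wide, a receptor that was not called is not shown to be at the same level in both types.

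The share of neurons with a count was compared as the mean difference over the 14 prefixes with both types, by an exact two-sided sign-flip permutation test adjusted over 9590 genes. The smallest p this design allows is 0.000122, so a gene could be called only if many genes had p-values at or near it. None of 8 receptors besides *Qrfpr* was called, beside 0% of all genes, and 0 of the 8 had an unadjusted p under 0.05 beside 6.1% of all genes. The share over all neurons was higher in Pyr←ORBvl neurons for 5 of the 8, which stands beside 65.6% of all genes, and lower for 3.

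Of the 13 Gi/o-coupled receptors, 9 had a count, and at least 1 of them was detected in 31 of 47 Pyr←LP (66.0%) and 33 of 44 Pyr←ORBvl neurons (75%). *Npy1r* (chr8:66697149-66706800), the Y1 receptor of neuropeptide Y, had the widest detection in Pyr←ORBvl neurons along with *Qrfpr*. It was counted in 19 of 44 (43.2%) against 11 of 47 Pyr←LP neurons (23.4%). The mean difference over prefixes was 14.3 ± 40.4 points (SD, n = 14 prefixes; exact permutation p = 0.215, adjusted p = 0.896), higher in Pyr←ORBvl in 8 prefixes and lower in 3. By CPM of the summed counts in place of share, 6 prefixes were higher in Pyr←ORBvl and 5 lower, and thinned to 100000 counts the difference in share turned to -4.55 ± 53.9 points (SD, n = 11 prefixes).

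Levels of *Npy1r* did not separate the types. The lowest and median neuron were at 0 in both, and the highest were 247 FPKM in Pyr←LP C24 and 381 FPKM in Pyr←ORBvl C12. Mean FPKM was 20.3 ± 56.2 (SD, n = 47) and 40.4 ± 82.7 (SD, n = 44). The near-identical pair holds the next highest Pyr←ORBvl values, 198 and 214 FPKM, and without both neurons the Pyr←ORBvl mean was 32.5. With at least 5 counts required, 7 Pyr←LP and 10 Pyr←ORBvl neurons remained. The log2 fold change over prefix sums was 0.11 (SE 1.27), and it was below 0, at -0.84, in the 83 neurons that pass the study's exclusion rule. The peptide precursor *Npy* had a count in 6 and 8 neurons. Counts of both receptor and precursor were found in 5 neurons.

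The other Y receptors were rare. *Npy5r* had a count in 1 neuron, Pyr←LP C34, and *Npy2r*, mostly a presynaptic receptor, in none.

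Of the 5 somatostatin receptors, 2 were widely detected. *Sstr2* (chr11:113619327-113626028) was counted in 16 of 47 Pyr←LP (34.04%) and 12 of 44 Pyr←ORBvl neurons (27.3%), with highest values of 171 FPKM in Pyr←LP C17 and 129 FPKM in Pyr←ORBvl C44. Mean levels were 20.4 ± 44.8 (SD, n = 47) and 11.5 ± 32.1 FPKM (SD, n = 44), and the log2 fold change was -2.57 (SE 2.07). *Sstr4* (chr2:148395377-148396764) went the other way in value, with 4 of 47 (8.51%) and 10 of 44 neurons (22.7%) and a mean difference over prefixes of 14.4 ± 39.2 points (SD, n = 14 prefixes; exact permutation p = 0.203, adjusted p = 0.883). Its mean FPKM was nearly the same in both types, 15.99 ± 94.7 (SD, n = 47) and 17.01 ± 43.9 (SD, n = 44), and the single neuron Pyr←LP C13, at 646 FPKM, made up 85.9% of the Pyr←LP sum. The log2 fold change of *Sstr4* was 2.99 (SE 2.03, adjusted p = 1), and DESeq2 on the same sums gave 8.66 (SE 3.09, adjusted p = 0.0644). Neither receptor was called by edgeR or by DESeq2 on the sums. *Sstr1*, *Sstr3* and *Sstr5* had a count in 1 neuron each, that of *Sstr3* in Pyr←LP C34. *Sstr2* lies within the span of *Slc39a11*, and no strand setting is given for the counting, so reads of the overlap cannot be told apart.

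The somatostatin precursor *Sst* had a count in 7 Pyr←LP and 11 Pyr←ORBvl neurons, and the related cortistatin precursor *Cort* in 2 and 9. *Cort* had a log2 fold change of 2.97 (SE 1.51), which did not pass (adjusted p = 1). Of the 28 neurons with *Sstr2*, 6 had *Sst* counts and 5 had *Cort* counts.

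Opioid receptors were nearly absent apart from *Oprl1*, the nociceptin receptor. *Oprm1* and *Oprd1*, the mu and delta receptors, had no count in 91 neurons, which allows a share of up to 3.30%, and *Oprk1* had counts in Pyr←LP C34 alone. *Oprl1* (chr2:181715000-181720985) was counted in 15 of 47 Pyr←LP (31.9%) and 8 of 44 Pyr←ORBvl neurons (18.2%). Its highest values were 60.7 FPKM in Pyr←LP C39 and 85.9 FPKM in Pyr←ORBvl C19, the latter from 3 counts in a neuron of 2410 counts. Mean FPKM was 6.90 ± 15.04 (SD, n = 47) and 5.13 ± 18.2 (SD, n = 44). The log2 fold change was -3.75 (SE 2.35, adjusted p = 1), while DESeq2 on the same sums gave -5.71 (SE 1.49, adjusted p = 0.00450). The nociceptin precursor *Pnoc* was counted in 2 and 1 neurons, none with *Oprl1*. *Galr1*, a galanin receptor, had no count.

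All 6 Gs-coupled receptors had a count, and at least 1 of them was detected in 21 of 47 Pyr←LP (44.7%) and 11 of 44 Pyr←ORBvl neurons (25%). The FPKM summed over the 6 stood the other way in value, at a mean of 19.4 ± 53.2 (SD, n = 47) and 25.2 ± 63.5 (SD, n = 44). *Adcyap1r1* (chr6:55451501-55501455), the PAC1 receptor of the peptide PACAP, was counted in 10 of 47 Pyr←LP (21.3%, interval 11.99 to 34.9%) and 2 of 44 Pyr←ORBvl neurons (4.55%, interval 1.26 to 15.1%). The positive Pyr←LP neurons ran from 0.269 to 78.2 FPKM. The 2 positive Pyr←ORBvl neurons, C33 and C1, stood at 20.7 and 15.9 FPKM, so the levels in positive neurons overlapped. Mean FPKM over all neurons was 3.65 ± 13.4 (SD, n = 47) and 0.831 ± 3.89 (SD, n = 44). Pyr←LP C10 alone made up 45.6% of the Pyr←LP sum, and Pyr←ORBvl C33 56.6% of the Pyr←ORBvl sum.

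Per prefix, *Adcyap1r1* CPM was higher in Pyr←LP neurons in 7 prefixes and in Pyr←ORBvl neurons in 1, with no counts in 6. The log2 fold change was -4.52 (SE 2.03, unadjusted p = 0.0262, adjusted p = 0.981). The mean difference in share over prefixes was -15.95 ± 32.5 points (SD, n = 14 prefixes; exact permutation p = 0.0938, adjusted p = 0.829). Neither test passed after adjustment. Of the 12 positive neurons 9 had a count of an astrocyte marker, against 38 of 79 without *Adcyap1r1*, and astrocytes are known to carry this receptor. Of the list, *Gfap* had a count in 6 of 12 and 13 of 79, *Aldh1l1* in 4 and 11 and *Slc1a3* in 4 and 20. *Mlc1* had one in 2 and 9, *Aqp4* in 1 and 3 and *Gja1* in 1 and 5. The positive neurons also had a higher median total, 701336 against 332433, and 7 of 12 against 40 of 79 had a count of a GABAergic marker. The part of these in the result was not tested. Without the 8 neurons that fail the exclusion rule, 8 of 44 Pyr←LP and 2 of 39 Pyr←ORBvl neurons were positive.

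The precursor of the ligand, *Adcyap1*, stood the other way round in value. It had a count in 10 Pyr←LP (21.3%) and 19 Pyr←ORBvl neurons (43.2%), with mean FPKM of 10.9 ± 42.2 (SD, n = 47) and 73.1 ± 135 (SD, n = 44), and a log2 fold change of 3.41 (SE 2.21, adjusted p = 1). *Adcyap1* and *Adcyap1r1* were counted together in 5 neurons.

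*Mc4r*, the melanocortin 4 receptor, was counted in 4 of 47 Pyr←LP (8.51%) and 8 of 44 Pyr←ORBvl neurons (18.2%). As for *Qrfpr*, the Pyr←LP counts were single reads or pairs, 5 counts in all, against 1837 in Pyr←ORBvl neurons. At least 5 counts were found in 0 of 47 Pyr←LP and 5 of 44 Pyr←ORBvl neurons. Those 5, C28, C37, C9, C4 and C38, lay between 136 and 254 FPKM and belonged to 5 prefixes, 902, 914, 823, 811 and 915. The highest Pyr←LP value, 86.1 FPKM, was again 1 count in Pyr←LP C16, which made up 96.6% of the type's sum. Mean FPKM was 1.89 ± 12.5 (SD, n = 47) and 21.7 ± 63.3 (SD, n = 44). *Mc4r* did not reach the count filter and has no fold change test. The mean difference in share was 3.93 ± 21.5 points (SD, n = 14 prefixes; exact permutation p = 0.531, adjusted p = 0.969). Counts of the ligand precursors *Pomc* and *Agrp* were found in 6 and 2 neurons, none with *Mc4r*.

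Of the remaining Gs-coupled receptors, *Vipr1*, a receptor of vasoactive intestinal peptide and PACAP, had a count in 5 Pyr←LP and 2 Pyr←ORBvl neurons. Its highest values were 334 FPKM in Pyr←LP C3 and 48.0 FPKM in Pyr←ORBvl C20. *Crhr1*, the main receptor of corticotropin-releasing hormone, had a count in 5 and 1 neurons, at most 115 FPKM in Pyr←LP C20 and 67.7 FPKM in Pyr←ORBvl C21. With *Adcyap1r1* and *Oprl1*, *Crhr1* had one of the largest differences in share toward Pyr←LP, -8.37 points. *Vipr2* was counted in 2 Pyr←ORBvl neurons and *Crhr2* in 1 Pyr←LP neuron. The precursor *Vip* had a count in 2 neurons of each type and *Crh* in 1 Pyr←LP neuron.

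Of the 15 Gq-coupled receptors 11 had a count, and at least 1 was detected in 21 of 47 Pyr←LP (44.7%) and 30 of 44 Pyr←ORBvl neurons (68.2%). Without *Qrfpr* the numbers were 20 (42.6%) and 25 (56.8%). *Cckbr*, the brain receptor of cholecystokinin, (chr7:105425676-105436339) was the most widely detected receptor and had nearly the same share in both types. It was counted in 16 of 47 (34.04%) and 15 of 44 neurons (34.09%), with mean FPKM of 23.2 ± 66.5 (SD, n = 47) and 24.3 ± 53.2 (SD, n = 44). The highest neurons were Pyr←LP C37 at 357 FPKM and Pyr←ORBvl C4 at 230 FPKM. The mean difference in share over prefixes was -4.52 ± 46.7 points (SD, n = 14 prefixes; exact permutation p = 0.736, adjusted p = 0.995). The log2 fold change was 0.96 (SE 2.90). Its ligand precursor *Cck* had a count in 33 Pyr←LP (70.2%) and 35 Pyr←ORBvl neurons (79.5%), the widest of all precursors, and 25 of the 31 neurons with *Cckbr* also had *Cck* counts. *Cckar*, the other cholecystokinin receptor, had no count.

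*Ntsr2* (chr12:16653443-16660236), a neurotensin receptor that cortical astrocytes also carry, was counted in 7 of 47 Pyr←LP (14.9%) and 13 of 44 Pyr←ORBvl neurons (29.5%). Its positive Pyr←LP neurons lay between 96.2 and 296 FPKM, and the highest Pyr←ORBvl neurons, C18 and C14, reached 494 and 492 FPKM, the former from 10 counts. Mean FPKM was 22.0 ± 58.8 (SD, n = 47) and 44.2 ± 111 (SD, n = 44). Among the neurons with at least 100000 counts the order turned, at 27.3 ± 64.5 (SD, n = 38) and 23.6 ± 55.8 (SD, n = 34). In the 83 neurons that pass the exclusion rule, 5 of 44 and 12 of 39 neurons were positive, with means of 13.3 and 47.8 FPKM. The log2 fold change was 1.99 (SE 2.06), and the mean difference in share was 14.6 ± 36.1 points (SD, n = 14 prefixes; exact permutation p = 0.168, adjusted p = 0.870). Thinned to 100000 counts, this difference turned to -0.758 ± 34.7 points (SD, n = 11 prefixes). Astrocyte markers were found in 15 of the 20 *Ntsr2* neurons (75%) and 32 of the 71 others (45.1%). Of the list, *Mlc1* had a count in 7 of 20 and 4 of 71, *Slc1a3* in 10 and 14, *Gfap* in 7 and 12, *Aldh1l1* in 3 and 12, *Gja1* in 3 and 3 and *Aqp4* in 2 and 2. The summed FPKM of the 6 markers ran from 0 to 472 in Pyr←LP and from 0 to 191 in Pyr←ORBvl neurons, and none of the 6 was at 0 in either type; the part of this in the *Ntsr2* values was not tested. *Ntsr2* also lies within the span of *Lpin1*, so reads of the overlap cannot be told apart. *Ntsr1*, a marker of layer 6 corticothalamic neurons, had 3 counts in Pyr←LP C34 and none elsewhere. The precursor *Nts* had a count in 1 neuron.

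*Hcrtr2*, an orexin receptor, was counted in 4 of 44 Pyr←ORBvl neurons (9.09%) and 0 of 47 Pyr←LP neurons, with the highest level, 26.6 FPKM from 14 counts, in Pyr←ORBvl C43 and the most counts, 43 at 9.27 FPKM, in Pyr←ORBvl C8. A count of 0 in 47 allows a share of up to 6.38%, and this difference was not tested. *Hcrtr1* had no count. *Tacr3*, the neurokinin B receptor, was counted in 2 neurons of each type, and its Pyr←LP mean of 6.33 FPKM against 0.0513 in Pyr←ORBvl neurons rests on those 2 neurons, of which Pyr←LP C39 was the higher at 177 FPKM. *Trhr* had a count in 1 neuron of each type. *Tacr1*, *Oxtr* and *Avpr1a* had a count in 1 Pyr←ORBvl neuron each and *Nmbr* in 1 Pyr←LP neuron. *Galr2* and *Grpr* had none.

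**Figure D3:**
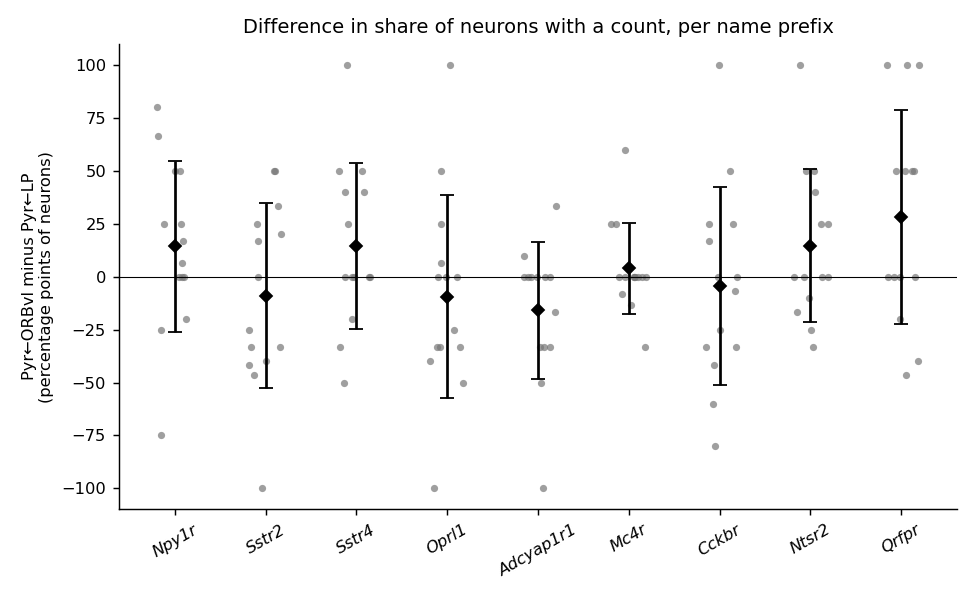
Difference between the types in the share of neurons with a count, Pyr←ORBvl minus Pyr←LP in percentage points, for 9 receptors. Each grey point is 1 of the 14 prefixes that hold both types, the diamond is their mean and the bar their SD; every SD bar crosses 0, and the mean runs from -15.95 points for *Adcyap1r1* to 28.1 points for *Qrfpr*.

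Ordered by mean FPKM over all 91 neurons, the widely detected receptors were *Ntsr2* (32.7 ± 88.5, SD), *Npy1r* (30.004 ± 70.6), *Cckbr* (23.8 ± 60.1), *Qrfpr* (18.9 ± 45.4), *Sstr4* (16.5 ± 74.2), *Sstr2* (16.1 ± 39.2), *Mc4r* (11.5 ± 45.8), *Oprl1* (6.05 ± 16.6) and *Adcyap1r1* (2.29 ± 10.03). Each SD exceeds its mean, and no neighbours in this order differ by more than their spread. The deposited FPKM of *Oprl1* rests on a length of 14.5 kb, longer than its span of chr2:181715000-181720985, so its place is uncertain. In mean CPM, which is not scaled to length, *Oprl1* was the highest of the 9 in Pyr←LP neurons, at 100.1. In Pyr←ORBvl neurons it was at 74.4, below *Qrfpr* at 146, *Npy1r* at 121.4 and *Cckbr* at 76.3. In Pyr←ORBvl neurons *Qrfpr* was the third by mean FPKM, after *Ntsr2* and *Npy1r*, and in Pyr←LP neurons the last of the 9. With the near-identical pair taken as 1 neuron, *Qrfpr*, at 38.3, came before *Npy1r*, at 36.5, in Pyr←ORBvl neurons. Among neurons with at least 100000 counts, with the pair given as 2 neurons, the order was another. *Qrfpr* was second in Pyr←ORBvl neurons at 41.2, after *Npy1r* at 41.8 and ahead of *Ntsr2* at 23.6. In Pyr←LP neurons *Mc4r*, at 0.0787, was below *Qrfpr*, at 0.104. Both neurons of the pair are among these, with *Npy1r* at 198 and 214 FPKM, and the lead of *Npy1r* over *Qrfpr* rests on counting both.

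A neuron held few of these receptors. The number of receptors with a count was 2.30 ± 2.19 per Pyr←LP neuron (SD, n = 47) and 2.80 ± 1.91 per Pyr←ORBvl neuron (SD, n = 44), and 9 and 5 neurons held none. Without *Qrfpr* the means were 2.17 and 2.36, and thinned to 100000 counts, *Qrfpr* again left out, 1.97 and 2. In the 83 neurons that pass the exclusion rule the means were further apart, 2.14 and 2.95 with *Qrfpr* and 2 and 2.51 without it. In each of these the difference between the types was smaller than the SD of either. The neuron with the most receptors, 10, was Pyr←LP C34, which also has the most detected genes. Across the 91 neurons the number of receptors was higher in neurons with more detected genes (Spearman's rho = 0.602, Pearson's r = 0.610, given as a description, since both are read from the same library) and the relation with the total count was weaker (rho = 0.202, r = 0.213).

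**Figure D4:**
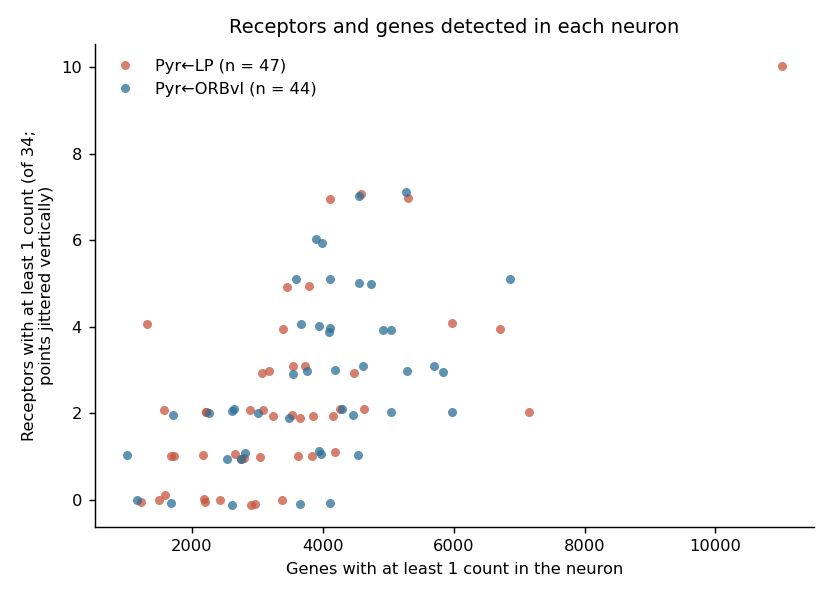
Number of the 34 receptors with at least 1 count (y axis, jittered) against the number of all genes with a count (x axis) in each of 47 Pyr←LP (red) and 44 Pyr←ORBvl (blue) neurons. The point at the far right is Pyr←LP C34, with 11013 genes and 10 receptors; all other neurons have at most 7 receptors.

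Some receptors were counted in the same neurons, given as a description; the part of the number of detected genes in this was not tested. *Sstr2* and *Cckbr* shared 18 neurons, 64.3% of those with *Sstr2* and 58.1% of those with *Cckbr*. *Qrfpr* and *Cckbr* shared 14 neurons, 56.0% and 45.2%. Of the 12 neurons with *Mc4r*, 8 had *Qrfpr* counts (66.7%), 6 of them Pyr←ORBvl, and of the 14 with *Sstr4*, 7 had *Qrfpr* counts, all Pyr←ORBvl. *Qrfpr* and *Adcyap1r1* met in 1 neuron, of type Pyr←LP. These numbers mix the types. Of the 25 neurons with *Qrfpr* 19 are Pyr←ORBvl, as are 10 of the 14 with *Sstr4*, while 10 of the 12 with *Adcyap1r1* are Pyr←LP. The part of the neuron type in the shared numbers was not tested.

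The rest of the peptide pathway was taken from lists of ligand precursors, processing genes, receptor accessory proteins, G proteins and effectors, and other peptide receptors. Of these genes 50 entered the edgeR test on prefix sums and none was called, beside 0.0363% of all genes. At an unadjusted p under 0.05 stood 2 of the 50, beside 4.62% of all genes, and DESeq2 on the same sums called 4, beside 6.56%. In value 26 were higher and 24 lower in Pyr←ORBvl neurons, with a median log2 fold change of 0.09 beside 0.31 over all genes.

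Of 30 precursors 21 had a count in some neuron, and *Cck*, *Adcyap1*, *Sst*, *Nmb* and *Npy* were the widest. *Nmb*, the neuromedin B precursor, had counts in 6 and 10 neurons at a mean of 0.223 and 0.429 FPKM, near single counts. All 9 processing genes were found: *Cpe*, the carboxypeptidase that trims peptide ends, in all 91 neurons, *Scg5* in 39 and 39, *Chgb* in 36 and 31, the prohormone convertase *Pcsk2* in 34 and 28, and the granin *Scg2* in 23 and 31. *Chgb*, a granin of dense-core vesicles, had the smallest unadjusted p of the 50, with a mean of 235.5 ± 300.5 FPKM (SD, n = 47) and 94.1 ± 155 FPKM (SD, n = 44), a log2 fold change of -3.06 (SE 0.92) and an adjusted p of 0.449. *Pcsk2* stood at -2.23 (SE 1.16, adjusted p = 1). All 9 were found in neurons of both types.

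Of 44 G-protein and effector genes with a row, 40 had a count in 10 or more neurons, beside 27.6% of all genes, and the 5 most widely detected are named. *Prkar1a*, a regulatory subunit of protein kinase A, had a count in 46 and 42 neurons, *Rgs4*, which shortens Gi/o and Gq signals, in 45 and 42, *Gng3* in 44 and 42, *Gnas*, the Gs alpha subunit, in 43 and 42, and *Gnb1* in 41 and 38. None of them passed the test. Their log2 fold changes lay between -0.35 and 0.33. Of the accessory genes, *Ramp1* was counted in 34 and 27 neurons, *Ramp2* in 5 and 6, *Ramp3* in 2 and 7 and *Mrap2*, which acts with melanocortin receptors, in 2 and 1.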

How the data were processed

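Full-length single-neuron libraries were sequenced by the authors, who aligned paired reads to GRCm38 with STAR 2.5.3 and a RefSeq annotation, removed PCR duplicates and counted uniquely aligned reads per gene. The deposited counts are whole numbers per gene and neuron, not normalized. The deposited FPKM values equal the count divided by the neuron's total count and a fixed length per gene, so both tables hold the same reads. Both hold all 91 neurons, numbered within a type in deposit order.

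Counts were summed per name prefix and type (hyphens dropped) and tested with edgeR 4.0.16 (R 4.3.3; TMM, quasi-likelihood, prefix as a block) on genes reaching 5 counts in 10 or more neurons, with Benjamini-Hochberg adjustment. A positive value is higher in Pyr←ORBvl neurons. Differences in share were tested with exact sign flips over prefixes (SciPy), on genes counted in 10 or more neurons. Positions are those of RefSeq on GRCm38.p6. The scripts were tested on simulated data. At the spread estimated from these data, the edgeR test on prefix sums called few of the genes given a change. A gene that was not called is therefore not shown to be unchanged. Alternatives were DESeq2 1.42.0, limma 3.58.1 on log2(FPKM + 1) and log2(FPKM + 0.1), single neurons as replicates, other filters and scaling, thinning to 100000 counts, each prefix left out, and the study's exclusion rule (total under 500, or summed log2(count + 1) of *Slc32a1*, *Gad1* and *Gad2* above 7), which leaves 83 neurons here. No deposited total is under 500, so these are not the study's own set of neurons. Total counts of 2410 to 1948982 per neuron set the precision. The receptors and the other lists were chosen with earlier results of these data known. Receptors are described in full if they are *Qrfpr*, pass a test, are counted in 10 or more neurons or are among the 3 largest differences in share in either direction. Of the other lists, genes that pass, the 5 most widely detected and the precursors of described receptors are named.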

Additional observations from a re-analysis of the deposited data

How the results depend on the processing

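Of the receptors tested besides *Qrfpr*, 0 of 7 were called by edgeR on prefix sums and 0 of 8 by share of neurons, and leaving out each prefix in turn gave 0 to 0 in both. By share this says nothing about stability: the smallest p that 14 prefixes allow is 0.000122, which over 9590 genes passes the adjusted threshold only where many genes stand at or near it. The edgeR result of 0 to 0 says little about stability either, because the wide standard errors of the receptors left little room for a call. DESeq2 on the prefix sums called 1, *Oprl1*; the cause was not tested. The number of all genes called was 3 in the edgeR test on prefix sums. It was 542 with DESeq2 on the same sums, 123 with edgeR and 65 with DESeq2 on single neurons as replicates, 171 with edgeR on single neurons under the exclusion rule, and 1 with no gene filter, with hyphenated prefixes kept apart, or with limma at either pseudocount; the cause was not tested. Without the prefix as a block (no replicate block) 23 genes and 0 receptors were called, and with single neurons and the prefix as a replicate block 175 genes and 0 receptors. Neuron numbers follow deposit order and pair nothing, so the prefix is the only block. Leaving out 1 prefix gave 1 to 7 genes, 7 without prefix 727. No value of a receptor that reversed was past a threshold: the *Npy1r* log2 fold change was -0.84 under the exclusion rule and -0.42 to 0.91 with prefixes left out, and that of *Sstr4* -0.045 on single neurons under the exclusion rule. Thinned to 100000 counts, the share difference was -4.55 points for *Npy1r*, 2.27 for *Sstr2* and -0.758 for *Ntsr2*. For *Cckbr* it was 3.45 at 5 counts or more and -12.6 to 1.28 with prefixes left out. Chosen after the values were seen, leaving out Pyr←LP C34 moved the difference in receptors per neuron from 0.498 to 0.665, and neurons with at least 100000 counts gave 5 of 9 receptors with the higher mean in Pyr←ORBvl neurons in place of 6. Sparse counts, shallow neurons and unnamed mice limit all comparisons.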

Other observations

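Of 44 further peptide receptors with a row in the files, 24 had no count in any neuron, beside 46.3% of all genes, and 2 had a count in 10 or more, beside 27.6% of all genes. *Mchr1*, the receptor of melanin-concentrating hormone, was as widely detected as the leading receptors above, in 14 of 47 Pyr←LP (29.8%) and 16 of 44 Pyr←ORBvl neurons (36.4%), with mean FPKM of 31.03 ± 69.9 (SD, n = 47) and 45.96 ± 91.6 (SD, n = 44). Its log2 fold change was 1.26 (SE 2.32, edgeR adjusted p = 1). *Rxfp1*, a relaxin receptor, was counted in 5 and 7 neurons, *Ednrb*, an endothelin receptor, in 4 and 3, *Pth1r* in 3 and 3 and *Gipr* in 1 and 3.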
